A study of Mus musculus with 35 samples.

Results

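Fetal chromatin regions of the mouse blood system that both stem and progenitor cells had and that neither cell type had in the adult numbered 4919. They were found by ATAC-seq, in which Tn5 transposase inserts adapters into accessible DNA and the regions with many insertions are called as peaks. The cells, stem cells of the blood (HSCs) and their progenitor offspring (HPCs), had been taken from mice on a B6 background. The first set of 24 libraries held fetal HSCs (3 libraries) and fetal HPCs (3) at embryonic stage E16.5, HPCs at postnatal day 7 (P7; 3), HSCs (3) and HPCs (2) at P14, HPCs (2) at P21, and HSCs (5) and HPCs (3) at 8 weeks, called adult here. The second set held 11 libraries at P7: HSCs (3) and HPCs (3) labelled wild type, and HSCs (2) and HPCs (3) whose genotype label is Infnar_KO, called knockout here. No label of the first set names an allele, and the titles of its adult libraries say WT. No source used here names the tissue of origin, the sex or, for the first set, the surface markers used for sorting; titles of HPC libraries in the second set carry the code 48+LSK. In 1 knockout HPC library the title carries a wild-type code at its end, and the list was taken as labelled.

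The libraries of a group had been joined into 1 peak list, so each value below holds for 1 list per group, has no spread between animals and was not tested between groups. A region was a peak, or peaks that touched, on the 19 autosomes or X. A member was a fetal HSC region that overlapped a fetal HPC region by at least 1 bp and overlapped no region of the adult HSC or adult HPC list. Fetal HSCs had 90968 regions, 69178 of them shared with fetal HPCs, and the members were 7.11% of those shared regions. Both adult lists held 54540 of the shared regions (78.8%), adult HSCs alone 5962 and adult HPCs alone 3757. Members were thus chosen by the calls in the fetal and adult lists, so fetal strength and adult absence are given as descriptions. Where a list lacks a region, no peak was called, and the chromatin may still have been open to some degree.

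The lists of the first set differ in length, from 73287 regions (P14 HSCs) to 91043 (P14 HPCs), and their median −log10 p ran from 29.2 (P7 HPCs) to 83.0 (adult HSCs). No source used here gives the read depths. In the second set the lists were shorter (42459 to 66044 regions) and had been made in another way, with a lowest −log10 p of 2 against 1 in the first set. For 12 of its 24 libraries, the first set's descriptions point to a peak list of a different group than the title does. No P14 or P21 library points to its own list, and neither do 3 of the 5 adult HSC libraries and 1 each of the fetal HPC and P7 HPC libraries. Lists were taken as the group whose name they carry, and every value below rests on that. At the ends of 7 stem and progenitor marker genes, 6 (all but Ly6a) had a region in each fetal and adult list, and of 7 markers of other cells 3 had one (Alb, Col1a1, Adgre1), or 4 in adult HPCs (with Cdh5).

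All blood lineages descend from HSCs. Fetal HSCs divide often and give rise to a different balance of blood cells than the largely resting HSCs of the adult, and the change to the adult state extends over the weeks after birth. The RNA-binding protein Lin28b is a known switch between these states: it blocks the maturation of let-7 microRNAs, which in turn repress Hmga2 and Igf2bp3. Open chromatin marks gene starts, which are often open in many tissues, and distal elements such as enhancers, which vary more between cell types and ages.

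Few members lay at gene starts, and the sequences there are shown because the members that remained called after birth and those that did not can be set beside starts kept in the adult. Of 21044 RefSeq promoter windows (250 bases before to 50 after a start, build GRCm38.p6, which is mm10), members overlapped 134, belonging to 117 genes. The stretches printed are the parts of the 250 bases before the start that the region covered, on the strand of the gene, with each CG dinucleotide (CpG) in capitals. Stretches of at least 150 bases could be had for 72 genes, 31 of them with a member in no postnatal list. The first 3 are those of the 31 with the strongest member, predicted genes left out: Elavl2, a neuronal RNA-binding protein (chr4:91399985-91400234, minus strand), Folh1, a folate hydrolase (chr7:86775865-86776114, minus strand), and Dpp6, a partner of potassium channels (chr5:26817107-26817356, plus strand).
Elavl2: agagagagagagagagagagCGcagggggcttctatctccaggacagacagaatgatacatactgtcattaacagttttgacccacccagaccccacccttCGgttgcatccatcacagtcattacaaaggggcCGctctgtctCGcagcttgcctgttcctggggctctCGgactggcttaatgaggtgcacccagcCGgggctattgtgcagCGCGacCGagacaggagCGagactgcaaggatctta
Folh1: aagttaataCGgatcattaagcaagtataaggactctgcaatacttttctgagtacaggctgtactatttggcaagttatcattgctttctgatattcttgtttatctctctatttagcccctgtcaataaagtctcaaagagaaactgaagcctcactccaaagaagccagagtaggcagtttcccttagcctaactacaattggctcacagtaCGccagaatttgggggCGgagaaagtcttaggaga
Dpp6: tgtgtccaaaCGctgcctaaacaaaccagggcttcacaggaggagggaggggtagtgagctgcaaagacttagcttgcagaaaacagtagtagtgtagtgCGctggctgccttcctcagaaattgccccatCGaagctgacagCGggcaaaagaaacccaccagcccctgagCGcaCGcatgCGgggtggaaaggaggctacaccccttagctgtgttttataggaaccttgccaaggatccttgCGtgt
The next 3 are those of the 72 whose member was called in most postnatal lists: Gigyf1, a gene of translational control, at an inner start (chr5:137518630-137518879, plus strand), Rsph6a, a gene of sperm flagella (chr7:19054437-19054686, plus strand), and Prss50, a testis protease (chr9:110857714-110857963, plus strand).
Gigyf1: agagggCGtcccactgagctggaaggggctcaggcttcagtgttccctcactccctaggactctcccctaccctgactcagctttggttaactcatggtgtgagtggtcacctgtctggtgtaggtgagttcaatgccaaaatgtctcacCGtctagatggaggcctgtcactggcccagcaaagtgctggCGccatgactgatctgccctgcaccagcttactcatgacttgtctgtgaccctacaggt
Rsph6a: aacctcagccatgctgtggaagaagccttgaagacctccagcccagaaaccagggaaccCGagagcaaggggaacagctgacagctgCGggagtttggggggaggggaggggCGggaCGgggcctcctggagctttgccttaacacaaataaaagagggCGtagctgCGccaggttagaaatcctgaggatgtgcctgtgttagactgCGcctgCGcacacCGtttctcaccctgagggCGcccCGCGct
Prss50: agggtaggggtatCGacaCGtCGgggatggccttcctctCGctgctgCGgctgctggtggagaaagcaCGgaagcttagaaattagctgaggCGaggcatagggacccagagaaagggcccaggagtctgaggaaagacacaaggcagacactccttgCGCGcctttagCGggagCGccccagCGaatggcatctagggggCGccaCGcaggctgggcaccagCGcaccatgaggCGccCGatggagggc
The last pair belongs to stem cell genes whose region was kept in both adult lists: Kit, the receptor for stem cell factor (chr5:75574737-75574986, plus strand), and Hlf, a transcription factor of HSCs (chr11:90390918-90391167, minus strand).
Kit: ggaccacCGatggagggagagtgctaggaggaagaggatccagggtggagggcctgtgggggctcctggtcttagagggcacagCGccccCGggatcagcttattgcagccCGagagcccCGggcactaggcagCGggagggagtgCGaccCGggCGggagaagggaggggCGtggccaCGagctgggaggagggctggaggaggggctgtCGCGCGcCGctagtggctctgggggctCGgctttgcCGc
Hlf: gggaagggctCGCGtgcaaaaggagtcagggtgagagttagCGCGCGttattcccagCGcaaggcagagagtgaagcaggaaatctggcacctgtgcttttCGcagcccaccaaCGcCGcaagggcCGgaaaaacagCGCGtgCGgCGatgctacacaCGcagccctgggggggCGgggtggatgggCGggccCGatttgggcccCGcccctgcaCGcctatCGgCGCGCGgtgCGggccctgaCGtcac
In these stretches the first 3 held 10, 3 and 8 CpG, the next 3 held 3, 12 and 17, and Kit and Hlf held 17 and 26.

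Over all windows, the starts that members overlapped were poorer in CpG than the starts kept in the adult. The median window held 11 CpG, against 21 for the 12214 windows that regions of both adult lists overlapped and 13 for all windows, and its GC content was 58.7% against 62.0% and 56.7%. Windows with 5 or fewer CpG were 29.1% of those that members overlapped, 5.84% of those kept and 31.7% of all. Short motifs were searched on both strands as plain letters. The AP-1 motif TGANTCA was in 7.46% of the members' windows, 4.15% of kept and 7.04% of all windows. The E-box CAGCTG, found at many lineage genes, was in 22.4%, 14.5% and 15.7% of these windows.

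The GATA, RUNX and ETS motifs, of factors that act in blood cells, were not more frequent in the members' windows than in all windows. The GATA motif AGATAA was in 5.97% of the members' windows, 5.44% of kept and 9.68% of all windows. For RUNX factors, TGTGGT was in 9.70%, 11.6% and 14.8% of these windows. For ETS factors, ACTTCC was in 18.7%, 27.7% and 25% of these windows. These are letters found in 300 bases, not sites shown to be bound, and motifs within the regions themselves were not analysed here.

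Members were weaker, narrower and farther from genes than the shared fetal regions that the adult kept. Their median −log10 p, taking the lower of the fetal values, was 16.3 against 61.2 for regions of both adult lists, and their median width was 411 bp against 665 bp. The median distance to the nearest end of a protein-coding gene was 40.9 kb, against 11.7 kb for kept regions. Within 1 kb of a gene end lay 376 members (7.64%, exact Clopper-Pearson 95% interval 6.92 to 8.42), against 25.4% of kept regions and 21.9% of all shared fetal regions. Over 200 kb from any protein-coding gene end lay 1050 members (21.3%, 20.2 to 22.5), against 5.94% of kept regions and 7.68% of all shared fetal regions. Of the 4858 regions in the opposite case, in both adult lists and in neither fetal list, 8.58% lay over 200 kb away. With the ends of all RefSeq genes, 2.97% of members lay that far, and kept regions were not measured in that way. Distances to genes below are to protein-coding genes unless stated. Intervals here and below cover counting error only.

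Stronger members lay farther out. Among members with a fetal −log10 p over 40 in both lists (345), 42.6% lay over 200 kb from a gene end, against 24.9% of those between 20 and 40 and 17.8% of those under 20. Among kept regions of the same classes these shares were 5.57%, 6.58% and 6.81%, the lowest being that of the strongest class. Members made up 2.48% of the shared regions within 1 kb of a gene end, 6.31% of those at 1 to 10 kb, 6.44% at 10 to 50 kb, 9.26% at 50 to 200 kb and 19.8% beyond 200 kb. They also had fewer shared fetal regions around them, a median of 14 within 250 kb against 20 for kept regions.

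After birth, most members were missing from each list. The postnatal lists had no part in the choice of the members. In HPCs at P7, 1245 members (25.3%, 24.1 to 26.5) were still called, against 81.6% of all shared fetal regions and 91.8% of those kept in both adult lists. In HSCs at P14 they were 1075 (21.9%, 20.7 to 23.0), against 77.3% and 86.8%. In HPCs they were 1545 at P14 (31.4%, 30.1 to 32.7), against 87.8% and 96.6%, and 776 at P21 (15.8%, 14.8 to 16.8), against 77.5% and 88.9%. Shares of the members were thus lowest at P21 and highest at P14 in HPCs, but the P14 HPC list is also the longest. With each list cut to its strongest 73287 regions, which left 3956 members, the shares were 33.3% at P7, 27.5% at P14 and 24.9% at P21 in HPCs and 32.9% in P14 HSCs, so that P7 came before P14.

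**Figure D1:**
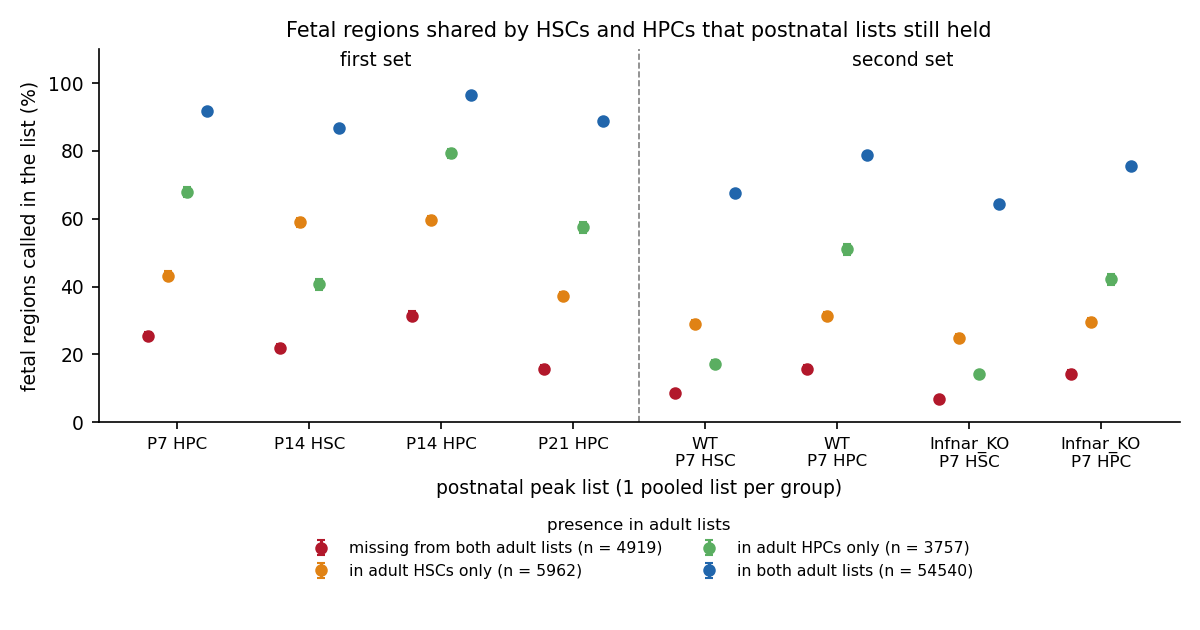
Percent of shared fetal regions called in each postnatal list (horizontal axis, 4 lists of each set), by presence in the adult lists; bars are exact 95% intervals for counting error. Members (missing from both adult lists) had the lowest share in each list, from 31.4% in P14 HPCs to 6.89% in knockout P7 HSCs.

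Where members were called after birth, they were among the weaker regions of that list. The median member called in P7 HPCs stood at percentile 18.6 of −log10 p within that list, in P14 HSCs at 26.4, in P14 HPCs at 18.6 and in P21 HPCs at 15.2. Regions kept in both adult lists stood at medians from 65.8 to 69.9. Regions that adult HSCs alone or adult HPCs alone had lay between, with a median percentile of 37.8 for the first in P14 HSCs and 40.4 for the second in P7 HPCs.

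Of the 4 postnatal lists of the first set, 2374 members (48.3%) were in none, 1193 in 1, 783 in 2, 394 in 3 and 175 in 4. In HPCs, 473 members were called at P7 and then no more, 425 at P7 and P14 but not P21, and 274 at each of the 3 ages. Another 1094 members (22.2%) were called at an HPC age after an earlier one without them, 592 of them at P14 alone. In these calls a loss in step with age thus described part of the members. The lists differ, however: of the HPC lists after birth, that of P14 is the longest (91043 regions) and that of P7 has the lowest median −log10 p (29.2). These patterns were counted for members only, so no share over all shared fetal regions stands beside them. At P14, 624 members were in the lists of both cell types, 58.0% of those called in HSCs and 40.4% of those called in HPCs.

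Members with stronger fetal calls were called more often in HPCs at P7, while in the other lists the strongest class did not have the highest share. Of the members with a fetal −log10 p over 40, 50.7% (45.3 to 56.1) were called in P7 HPCs, against 31.8% of those between 20 and 40 and 20.2% of those under 20. The same 3 classes gave 36.8%, 39.2% and 27.8% in P14 HPCs, and 13.9%, 26.3% and 21% in P14 HSCs. In P21 HPCs they gave 9.86%, 18.4% and 15.4%. The strongest class had the lowest share in P14 HSCs and P21 HPCs. Strength was also split at 1 to 10 kb and over 200 kb from a gene end, but not at other distances. In neither of these was the strongest class the lowest, though in P21 HPCs at 1 to 10 kb it was below the middle class. Whether distance accounts for the order was not tested. Over 200 kb from a gene end, where 42.6% of that class lay, the 3 classes gave 4.08%, 2.52% and 3.58% in P14 HSCs and 2.72%, 2.21% and 2.05% in P21 HPCs. At 1 to 10 kb they gave 54.8%, 54.2% and 35.3% in P14 HSCs and 32.3%, 35.4% and 22.3% in P21 HPCs. The strongest class held 31 members at 1 to 10 kb and 147 over 200 kb. Among kept regions the shares were highest in the strongest class in each of these lists, at 97.9%, 99.3%, 93.2% and 95.1%.

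**Figure D2:**
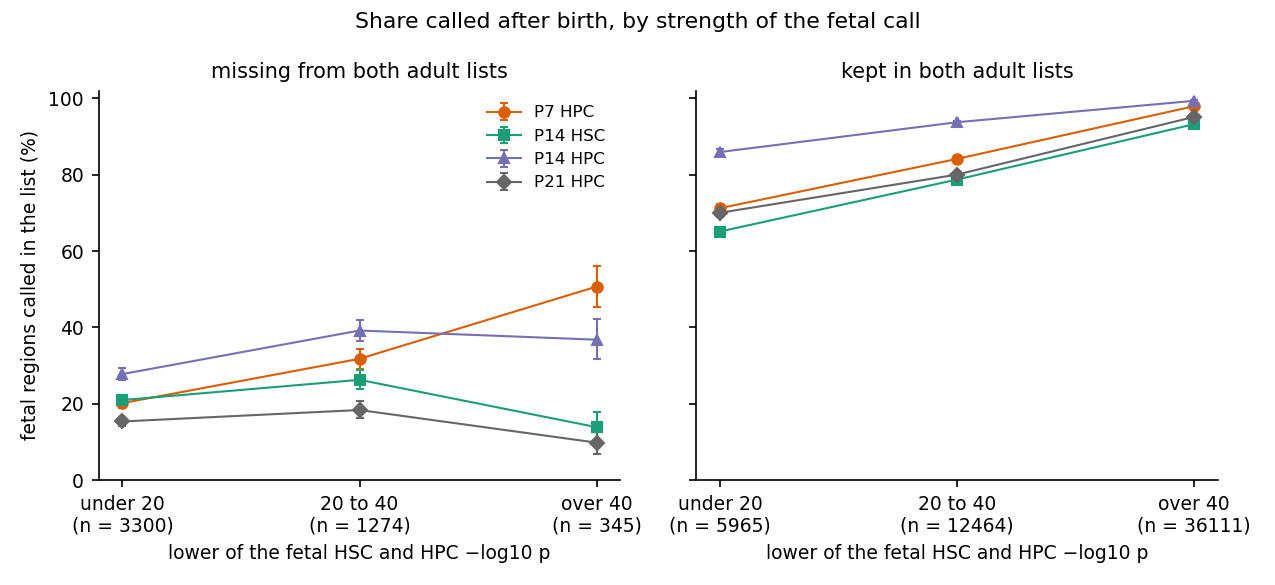
Percent of shared fetal regions called in the 4 postnatal lists of the first set (vertical axis) by class of the lower fetal −log10 p (horizontal axis), for members (left) and regions kept in both adult lists (right); bars are exact 95% intervals. Members over 40 reach 50.7% at P7 in HPCs and 9.86% at P21, while kept regions over 40 stay above 93%.

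The share called also varied with distance from genes, and did so differently between the lists. Members over 200 kb from a gene end were called in 22.1% (19.6 to 24.7) of cases in P7 HPCs and 15.5% (13.4 to 17.9) in P14 HPCs, but in 3.33% (2.33 to 4.61) in P14 HSCs and 2.19% (1.39 to 3.27) in P21 HPCs. Members within 1 kb were called in 25.8%, 44.4%, 39.6% and 27.4% of cases in the same order. Over all members the share thus varied little with distance in P7 HPCs, and it was more than 10 times lower far from genes than at gene ends in P14 HSCs and P21 HPCs. Members at 1 to 10 kb resembled those at gene ends, with 28.3%, 42.2%, 40.6% and 25.9%. At equal fetal strength the P7 HPC share was lower far from genes as well. It was 24.2% at 1 to 10 kb and 14.5% over 200 kb for members under 20, 35.8% and 23.3% for those between 20 and 40, and 61.3% and 49.7% for those over 40. In P14 HPCs the same pairs were 37% and 11.1%, 54.6% and 18%, and 64.5% and 27.9%.

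Kept regions far from genes were also called less often than those at gene ends. Over 200 kb away they were called in 89.4% of cases in P7 HPCs, 92.8% in P14 HPCs, 61.4% in P14 HSCs and 71.1% in P21 HPCs, against 95.8% to 99.1% within 1 kb. The lists as a whole differ likewise: regions over 200 kb from a gene end were 8.95% of fetal HSC and 8.55% of fetal HPC regions, 7.03% in P7 HPCs, 6.20% in P14 HPCs, 4.74% in P21 HPCs and 3.92% in P14 HSCs, and 7.38% and 7.17% in adult HSCs and HPCs. The part of this difference between lists in the members' shares was not tested. With the ends of all RefSeq genes in place of protein-coding ones, an alternative chosen after the data were seen, 2.97% of members lay over 200 kb away, 21.2% of them were called in P7 HPCs and none in P14 HSCs (interval to 2.49%).

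**Figure D3:**
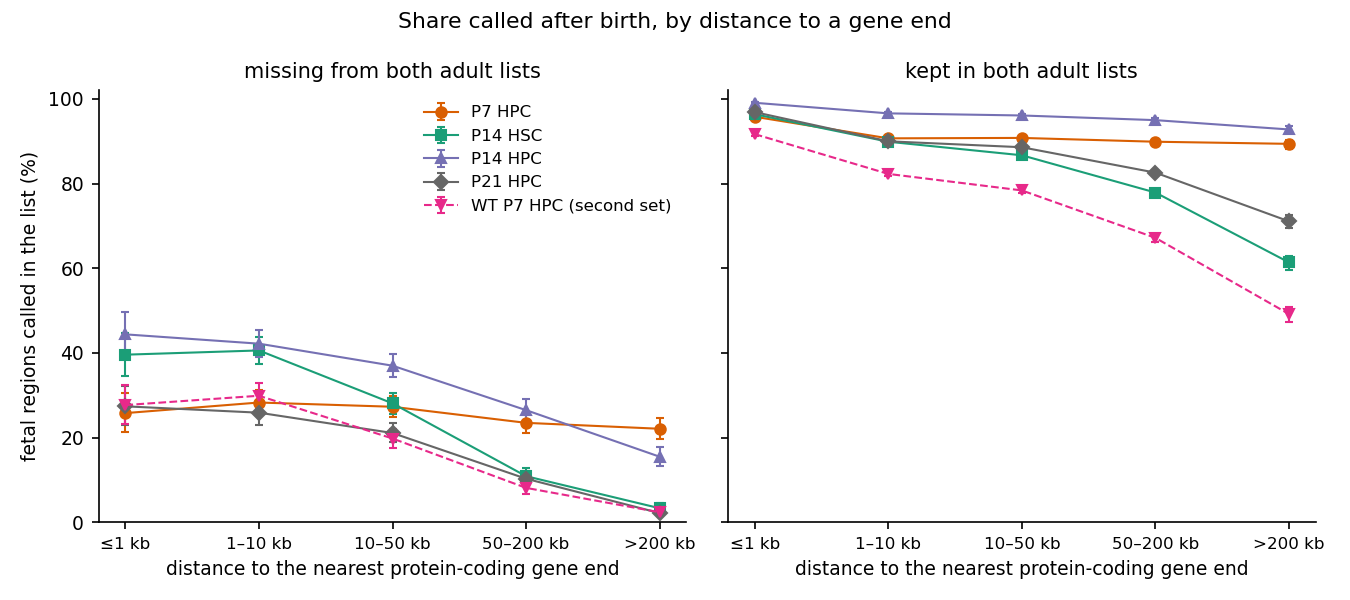
Percent of shared fetal regions called after birth (vertical axis) by distance to the nearest protein-coding gene end (horizontal axis), for members (left) and regions kept in both adult lists (right), in the first set (solid) and in wild-type P7 HPCs of the second set (dashed); bars are exact 95% intervals. For members the P7 HPC line of the first set stays between 22.1% and 28.3%, whereas P14 HSCs drop from 39.6% to 3.33%.

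The second set gave the P7 calls of HSCs, which the first set lacks, and a second list of P7 HPCs. Among wild-type lists, 419 members (8.52%, 7.75 to 9.33) were called in HSCs and 775 (15.8%, 14.7 to 16.8) in HPCs, against 57.3% and 68.8% of all shared fetal regions. In the knockout lists they were 339 (6.89%, 6.20 to 7.64) in HSCs and 703 (14.3%, 13.3 to 15.3) in HPCs, against 54.0% and 65.4%. The knockout lists are shorter, and their shares of all shared regions are lower as well. With 1 list per group the difference between genotypes was not tested. Wild type and knockout shared 512 members in HPCs, 66.1% of the wild-type and 72.8% of the knockout calls. In HSCs they shared 213, 50.8% and 62.8%.

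P7 HPCs labelled wild type in the second set and P7 HPCs of the first set are of like cell type and age, and their lists agreed on part of the members. They shared 375 members, 30.1% of those called in the first set and 48.4% of those called in the second. Far from genes they differed most: of members over 200 kb from a gene end the first set held 232 and the second 25 (2.38%, 1.55 to 3.49), with 18 in both. The difference was not confined to members. Regions that far out were 7.03% of the whole first-set list and 3.66% of the second. Kept regions there were called in 89.4% and 49.2% of cases. The P7 value for distant members therefore rests on the list of the first set. Of the 419 members in wild-type P7 HSCs, 379 (90.5%) were also called in P14 HSCs of the first set, which were 35.3% of the members called there.

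Genes of the fetal programme carried 9 members among 91 shared regions (9.89%, against 7.11% of all shared regions), at 8 of the 18 genes matched. Igf2bp3, an RNA-binding protein of fetal tissues, had the strongest of them, at the outer edge of its start (chr6:49215330-49215769; −log10 p 135.2 in fetal HSCs and 119.4 in fetal HPCs). It was called in each of the 8 postnatal lists, with 51.3 in P7 HPCs, 130.8 in P14 HSCs, 52.7 in P14 HPCs and 44.7 in P21 HPCs, and in the second set with 97.2 in HSCs and 137.3 in HPCs (wild type) and 68.4 in HSCs and 134.2 in HPCs (knockout). Its rank stood at percentile 80.8 in each fetal list and from 45.9 to 69.1 after birth, and the nearest adult region lay 923 bp away with a −log10 p of 15.7.

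Lin28b had a pair of members inside the gene as RefSeq draws it, at chr10:45473675-45474078 (38.0 in fetal HSCs, 51.0 in fetal HPCs) and chr10:45473108-45473490 (18.6 and 30.6), and no postnatal list of either set called them. At a start of the gene, 2733 bp from the nearer member, a region of adult HSCs (chr10:45469007-45470374) reached 132.4, and 7 of the 8 postnatal lists had a region there, with 68.5 in P21 HPCs. At Lin28b the members thus lay beside a region that the adult kept. Sox17, a transcription factor of fetal HSCs, had a member inside it, 0.676 kb from a gene end (21.2 and 18.6) that was called in no postnatal list. Members of Igf1r, a growth factor receptor gene, and Igf2, a fetal growth factor, were weak (10.6 and 14.0 for the lower fetal value), the first in no postnatal list and the second in knockout P7 HPCs alone.

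At Hmga2, a chromatin protein under let-7 control, the member (chr10:120477483-120477857, 10.7 in fetal HSCs) lay at the edge of a fetal HPC region of 2133 bp. It fell between adult HSC regions: one with 67.5 ended 81 bp before it and one with 18.6 began 310 bp after it. The member was called in 6 of the 8 postnatal lists as part of regions of 1113 to 2133 bp. The member listed under Arid3a lay within the neighbouring gene Kiss1r. A member of 233 bp (chr17:17829384-17829616; 29.1 and 34.5) lay 736 bp before the hairpin of let-7e and 1196 bp before that of miR-125a, inside Spaca6. It was called in the 4 postnatal lists of the first set, with 18.7 in P7 HPCs, 12.1 in P14 HSCs, 35.1 in P14 HPCs and 19.8 in P21 HPCs, and in none of the second. The mature sequences are shown with the seed, bases 2 to 8, in capitals; let-7e carries the seed of the family that Lin28b holds back.
let-7e-5p: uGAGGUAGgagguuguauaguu
miR-125a-5p: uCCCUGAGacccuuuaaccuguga

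Regulators and markers of HSCs had few members, 3 among 162 shared regions (1.85%, against 7.11% of all shared regions). They were weak regions inside Erg (26.8 and 18), Prdm16 (11 and 21.4) and Mecom (7.59 and 11.7), each a transcription factor gene of HSCs. The Erg region was called in 5 postnatal lists, with 56.3 in P14 HSCs, the Prdm16 region in P7 HPCs and P14 HSCs, and the Mecom region in P14 HSCs and knockout P7 HPCs. All 3 were thus called in P14 HSCs, where 21.9% of all members were called, but 3 regions are too few to show a pattern. Erythroid and megakaryocytic genes had 1 member among 61 (1.64%), next to Pf4, a platelet chemokine (72.4 and 30.0), and 7 of the 8 postnatal lists called it.

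Myeloid genes had 5 members among 43 shared regions (11.6%) and lymphoid priming genes 5 among 132 (3.79%), against 7.11% of all shared regions. Counts this small do not set either list apart from that share. Inside Gfi1, a transcriptional repressor of HSCs and neutrophils (22.2 in fetal HSCs, 64.6 in fetal HPCs), the member was called in P7 HPCs (41.5), P14 HSCs (96.5) and both P7 HSC lists of the second set (75.5 and 33.9). Near Prtn3 and Elane, neutrophil protease genes, a member at chr10:79883719-79884146 (24.8 and 14.5) was called in P7 HPCs, P14 HSCs and knockout P7 HPCs. At Spi1, the gene of the transcription factor PU.1, the member lay beside a larger region: one of 530 bp in adult HPCs (379.0) ended 65 bp from it, and the second set called it within an 868 bp region in HPCs. Knockout P7 HSCs, like both fetal lists, called it as a region of its own (241 bp, 26.2). The region in Flt3, a receptor gene of lymphoid-primed progenitors (66.4 and 38.0), was called in 5 postnatal lists, and that in Tcf7, a T cell factor (48.5 and 22.2), in 7.

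Lists of other cells hold too few shared regions to be told from the 7.11% of all. There were no members among 44 shared regions of endothelial, 24 of T and NK cell and 17 of B cell genes, 1 among 30 of macrophage genes (Adgre1), 3 among 50 of stromal genes (6%; Pdgfrb, Nes, Sp7) and 2 among 37 of hepatocyte genes (5.41%). Interferon-stimulated genes had 4 among 57 (7.02%, against 7.11% of all): Ifnar1, Ifih1, Ifit1 and Oasl2. Cell cycle genes had 3 among 82 (Myc, Cdkn2a, E2f3) and antigen presentation 1 among 37 (H2-D1).

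Genes for adhesion molecules and channels of the nervous system carried most members of any list. The lists were written with earlier results of these data known, so their order is a description. They had 87 members among 433 shared regions (20.1%, against 7.11% of all shared regions), at 24 of 34 genes. After birth 7 of the 87 were called in P7 HPCs, 1 in P14 HSCs, 6 in P14 HPCs, 1 in P21 HPCs and none in the second set. Over all members the shares in these 4 lists were 25.3%, 21.9%, 31.4% and 15.8%. Cntnap5a, a neurexin relative, had 10 members among 12 shared regions, the strongest at chr1:116477453-116478246 (168.2 and 73.8) in no postnatal list. Csmd1, a complement control protein of neurons, had 9 among 22, led by chr8:15980463-15981360 (128.8 and 100.8), and no postnatal list called any of the 9. Gabrg1, a subunit of the GABA-A receptor, had members just before its start (chr5:70842853-70843674; 163.0 and 60.2) and on it (27.8 and 15.6), which were its 2 shared regions, and no postnatal list called either. Dlg2, a synaptic scaffold, had 8 among 45.

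These genes are long, and length went along with membership. Of the shared regions inside genes over 300 kb, 9.93% were members, and 9.29% with the neural list left out, against 4.66% inside shorter genes and 9.47% outside genes. Members inside the long genes were called in 19.5% of cases in P7 HPCs, 10.3% in P14 HSCs, 20.7% in P14 HPCs and 8.02% in P21 HPCs. Members inside shorter genes gave 29.9%, 37.4%, 42.4% and 26.4%. Macrod2, an ADP-ribose hydrolase gene of 1997.7 kb, had the most members of any gene, 11 among 43 shared regions, and 9 of them were in no postnatal list. Cadm2 and Lrrc4c, adhesion genes, had 8 among 13 and 7 among 11, and Nrg3, a growth factor gene, 7 among 13.

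**Figure D4:**
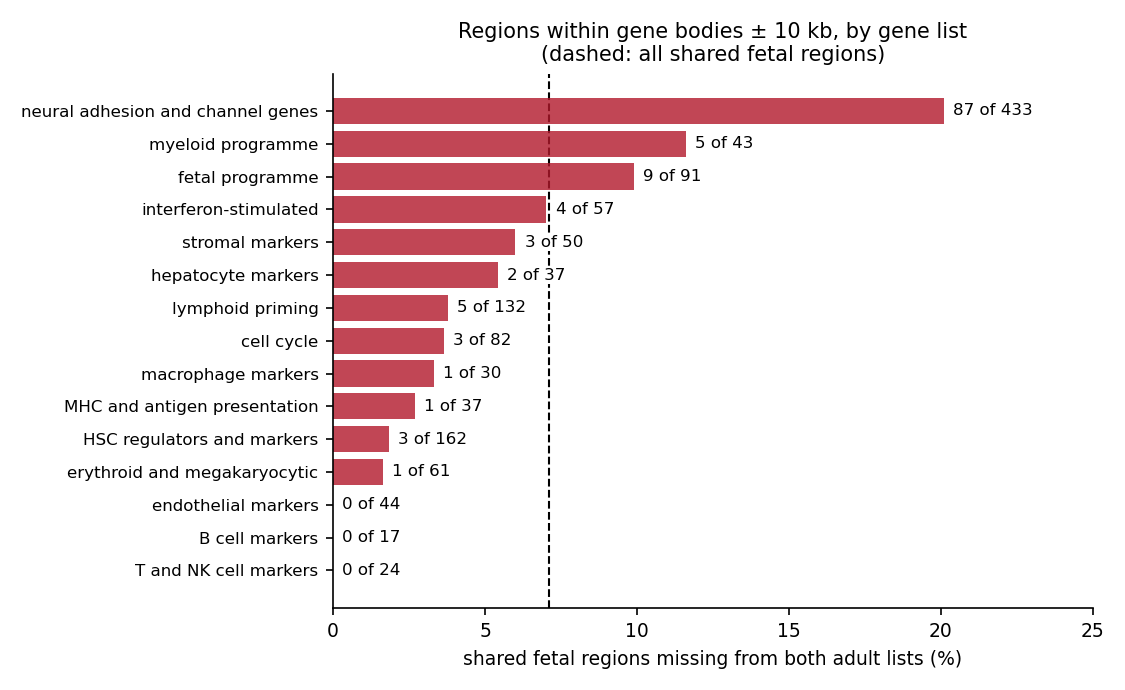
Shared fetal regions within gene bodies and 10 kb on each side that were missing from both adult lists, as percent of the shared regions of each gene list (bars, with counts); the dashed line is the 7.11% of all shared fetal regions. Neural adhesion and channel genes stand at 20.1% and HSC regulators at 1.85%. The gene lists were written with earlier results of these data known.

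Several of the strongest members had no protein-coding gene nearby. The strongest lay on chromosome 18 at 28282675 to 28283704, 1981.9 kb from the nearest gene end (Pik3c3), with −log10 p values of 209.8 and 233.8 in fetal HSCs and HPCs. It was called in P7 HPCs (116.1) and P14 HPCs (146.5), in P7 HPCs of wild type (43.1) and knockout (28.4), and in no HSC list after birth. A region at chr12:23189027-23190139 (160.5 and 211.9) was in no postnatal list. A region on chromosome 11 (chr11:38747105-38748114), 1510.1 kb from Tenm2, had 246.8 and 110.8 and was called in P7 HPCs (32.4) and P14 HPCs (41.6).

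Members lay in 1996 of the 2537 megabases that held a shared fetal region, and some megabases held many. The megabase with most was on chromosome 13 at 70 to 71 Mb, which holds Ice1 and Adamts16, with 17 members among 36 shared regions. At 116 to 117 Mb of chromosome 1, around Cntnap5a, 10 of 11 shared regions were members, and in the megabase from 103 Mb of chromosome 8, which holds no protein-coding gene, 10 of 13. In these 3 places P14 HSCs held 0, 0 and 1 of the members. A megabase of chromosome 7 (142 to 143 Mb), which holds 29 genes, Igf2 among them, differed, since 7 of its 10 members were called in P14 HSCs. The Igf2 member was not one of these. In all, 213 megabases had 5 or more members, and these held 1285 of the 4919.

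Among members with a gene end within 50 kb, predicted genes left out, the strongest by the lower fetal value was inside Osbpl8, a lipid transfer protein gene (chr10:111273068-111274013; 141.9 and 180.7). All 8 postnatal lists called it, with 104.7 in P14 HSCs and 13.2 in P21 HPCs. Neither adult list had a region within 5 kb of it. A stronger member, at the predicted gene 5730507C01Rik (163.3 and 242.9), was called in P7 HPCs, P21 HPCs and knockout P7 HSCs. Mtpn, a regulator of actin capping, had a member (116.4 and 113.9) in 7 lists, and the one near Nod1, a receptor for bacterial peptides (89.1 and 91.9), was in 6. Wdr20, Golga2 and Zmynd8 were among genes whose member was in all 8 lists, of which there were 42 members. The region inside Golga2, a Golgi matrix gene, reached 214.3 in P14 HSCs against 75.4 in fetal HSCs, each on the scale of its own list.

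Other strong members were in no postnatal list. The region near Cdh8, a cadherin of neurons (chr8:98995669-98996559), had 297.9 in fetal HSCs and 98.8 in fetal HPCs, and no list after birth called it. The same held for members near Fgf14, a channel partner (92.1 and 82.9), and Ntm, an adhesion gene (79.6 and 63.0). In all, 2298 members (46.7%) were in none of the 8 postnatal lists. Members near Mup5, Vmn2r78, Vmn2r76 and Olfr513 also ranked high, but these genes belong to families of near-identical copies, and no source used here says how reads with several matches were handled.

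**Figure D5:**
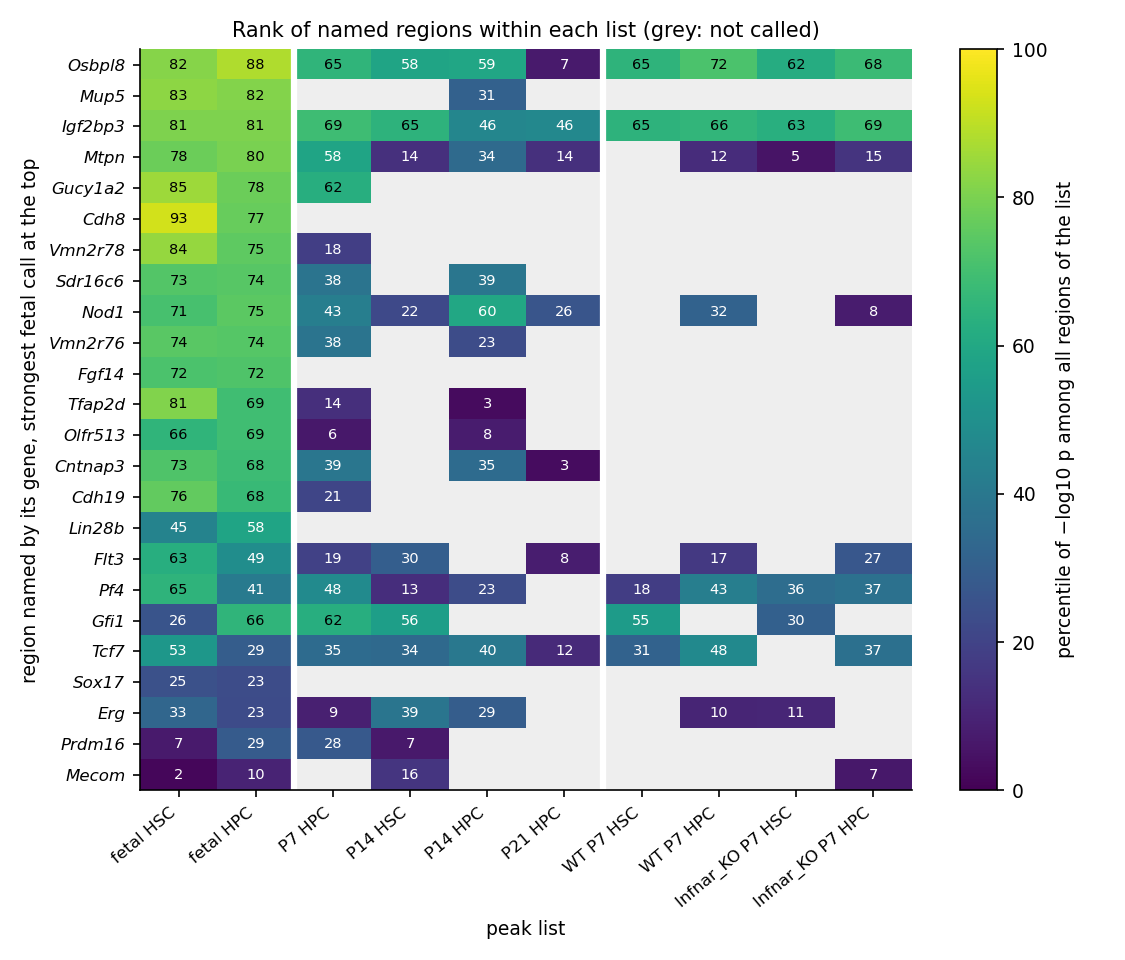
Percentile of −log10 p of named members within each peak list (colour and number; grey where not called), with genes ordered by the lower fetal value and lists in columns. Igf2bp3 and Osbpl8 are filled in each of the 8 postnatal columns, while Cdh8, Fgf14, Lin28b and Sox17 are grey in each of them.

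The edge of the rule touched few members. An adult region lay within 500 bp of 364 members (7.40%), within 100 bp of 97 and within 10 bp of 3, and the median member was 9.30 kb from the nearest adult region. Those within 500 bp had a median lower fetal −log10 p of 12.4. They were called in 30.8% of cases in P7 HPCs, 30.2% in P14 HSCs, 40.7% in P14 HPCs and 29.1% in P21 HPCs. Members over 10 kb from any adult region (48.6%) gave 21.3%, 10.7%, 22.1% and 7.10%. On the other side of the rule, 9 shared regions overlapped an adult region by fewer than 50 bp and were not members.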

How the data were processed

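ATAC-seq peaks of HSCs and HPCs were analysed as 12 deposited lists, 1 per group, from 35 libraries. Per the submitters' processing notes, Bowtie2 and MACS2 were used with build mm10 (GRCm38), with no version stated and no account of how libraries were pooled. In the deposited lists each peak carries a score, a fold over background, a −log10 p, a −log10 q and the offset of its summit, as the authors' peak caller made them. Each is a value of the peak within its own list, and here they served for ranks and filters within a list, since no depths are known by which levels could be compared between lists.

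Peaks on the 19 autosomes and X that touched were merged, keeping the highest −log10 p, and regions that shared 1 bp counted as shared. Distance was measured to the nearest end of 21627 protein-coding genes of RefSeq (GRCm38.p6). A gene held the regions in its body or 10 kb beside it. Of 252 gene symbols in 15 lists, 249 matched. Members and lists were chosen with earlier results of these data known. Members were named by the nearest gene end within 50 kb, predicted genes left out. The genes named are the 15 strongest members by the lower fetal −log10 p, the 10 strongest in no postnatal list and the 10 strongest in all 4 of the first set, the 10 genes with the most members and up to 3 genes of each list. Further genes of the lists, and members with a gene end within 50 kb or 1 kb or in all 8 lists, were added after their values were seen, and so were the megabases, motifs and printed stretches. With 1 list per group there was no test, and intervals are exact Clopper-Pearson at 95%. The overlap code was tested on simulated regions. Python 3.11.15, pandas 2.3.3, NumPy 2.4.6, SciPy 1.17.1 and matplotlib 3.10.9 were used. Some members at named genes are not reported here.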

Additional observations from a re-analysis of the deposited data

How the results depend on the processing

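Of 82 alternative values, 57 were counted as the same and 25 as moved. A share had moved if it fell outside the interval of the reported value. The number of members has no interval and was judged by a limit of its own, under which each alternative number counted as the same. The number of members stayed between 3956 and 5104, and leaving touching peaks unmerged gave identical values. Asking that 50% of a region be covered raised the share called in P14 HSCs to 23.1%. Leaving out members with an adult region within 500 bp gave 14.7% in P21 HPCs, 6.26% within 1 kb of a gene end and 22.7% over 200 kb away. A −log10 q of at least 5 gave 24% in P7 HPCs. Lists of equal length gave 33.3% in P7 HPCs, 32.9% in P14 HSCs, 27.5% in P14 HPCs and 24.9% in P21 HPCs, with 19.9% of members over 200 kb away, of which 27.7% were called in P7 HPCs and 11.6% in P14 HPCs. Members above the median fetal −log10 p gave 32.1%, 24%, 36.9% and 17.1% in the same order, with 6.45% within 1 kb and 25.2% over 200 kb away, of which 28.1% were called in P7 HPCs and 19.2% in P14 HPCs. The ends of all RefSeq genes gave 13.3% within 1 kb and 2.97% over 200 kb away, of which 0.0% were called in P14 HSCs, 11% in P14 HPCs and 0.685% in P21 HPCs. The ends of all RefSeq genes, the positions of members above the median, and each alternative value on members over 200 kb away were chosen after seeing the data. Causes of these moves were not tested, except that equal lists hold fewer regions by construction. In each of 9 settings and 4 lists, members over 200 kb away were called less often than members as a whole. No paired analysis was possible because each group has 1 pooled list, and for the same reason no replicate could be left out.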

Other observations

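Regions of both adult lists that neither fetal list had numbered 4858 of 68397 (7.10%). They were called in 33.4% of cases in P7 HPCs, 34.3% in P14 HSCs, 54.1% in P14 HPCs and 39.9% in P21 HPCs. Over 200 kb from a gene end (417 regions) these shares were 32.4%, 12.7%, 42.2% and 23.7%. In the second set, wild-type P7 HPCs held 27.5% of the 4858 and knockout P7 HPCs 18.8%, and wild-type and knockout P7 HSCs held 8.40% and 5.83%. Members of the fetal set made up 8.45% of the shared fetal regions of chromosome 1 and 5.23% of those of chromosome 19.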
